A study of Homo sapiens with 3 samples.

Results

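The inhibitors of cyclin-dependent kinases (CDKs), together with MTAP, the neighbour of CDKN2A on chromosome arm 9p, were read on 3 Illumina bead arrays of MDA-MB-231 cells. Of 8 genes considered (CDKN1A, CDKN1B, CDKN1C, CDKN2A, CDKN2B, CDKN2C, CDKN2D and MTAP), 7 had a probe with that symbol in the platform annotation, with 14 probes among 30112 probes assigned to 1 gene. CDKN2C, which encodes the INK4 inhibitor p18, was not analysed here. The genes were chosen by symbol with their intensities and detection p-values on these 3 arrays already known, so their values are a description and were not tested. Each probe is reported separately.

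MDA-MB-231 is an established cell line from a human triple-negative breast cancer and has mesenchymal features. There were 3 groups of 1 array each: cells transfected with a vector expressing FBP1 (fructose-1,6-bisphosphatase 1, a gluconeogenic enzyme), cells labelled as given an empty vector (called the vector control here), and wt cells (the wt control), for which the labels name no vector. The vector's promoter, the time after transfection and any selection of the cells are not given in the sources used here. Because each group was a single array, differences could be set against no replicate spread and carry no p-value, and the precision of all values is limited by the number of arrays.

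CDK inhibitors are small proteins that bind CDKs or their cyclin complexes and slow the passage from G1 into S phase. The CIP/KIP family (p21 from CDKN1A, p27 from CDKN1B and p57 from CDKN1C) binds complexes of several cyclins and CDKs, whereas the INK4 family (p16 from CDKN2A, p15 from CDKN2B, p18 from CDKN2C and p19 from CDKN2D) binds CDK4 and CDK6 and keeps them from D-type cyclins. CDKN2A also encodes, from its own first exon and in another reading frame, the ARF protein that restrains MDM2. MTAP encodes methylthioadenosine phosphorylase of the methionine salvage pathway and is often lost from tumours together with CDKN2A, and MDA-MB-231 is known as a line with a homozygous loss of CDKN2A.

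At a detection p-value under 0.01, between 41.8% and 42.0% of all probes were detected on each array. FBP1 gave deposited intensities of 1063.5 on the FBP1 array, 678.6 on the vector control and 530.8 on the wt control. Markers of the mesenchymal state of the line were present throughout, with 17 of 20 listed genes detected on each array, among them VIM, CD44 and AXL. Their summed intensities were 50554 on the FBP1 array, 60463 on the vector control and 58322 on the wt control. Against the vector control 1 was at least 1.5-fold higher and 2 lower, with a median log2 difference of -0.18. Against the wt control 1 was higher and none lower, with a median of -0.01. On 8 other genes, picked once the values were known, 1 of the 3 arrays did not match its label, which bears on every comparison that uses it. Whether that array holds the labelled cells alone was not tested.

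The probes fell into a detected and an undetected class. On all 3 arrays 5 of the 14 probes were detected, and these read CDKN1A, CDKN1B (2 probes), CDKN1C and CDKN2D. A further 4 were detected on 1 array each, 3 of them on the FBP1 array and 1 on the vector control, and 5 were detected on none. Of all probes with 1 gene detected on any array, 4.71% were detected on the FBP1 array only, 4.31% on the vector control only and 4.09% on the wt control only. Across all probes with 1 gene that were detected on at least 1 array, 79.1% were detected on all 3, against 5 of the 9 member probes detected on at least 1. The 4 probes detected on a single array all belonged to the block of CDKN2A, CDKN2B and MTAP on chromosome 9.

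**Figure D1:**
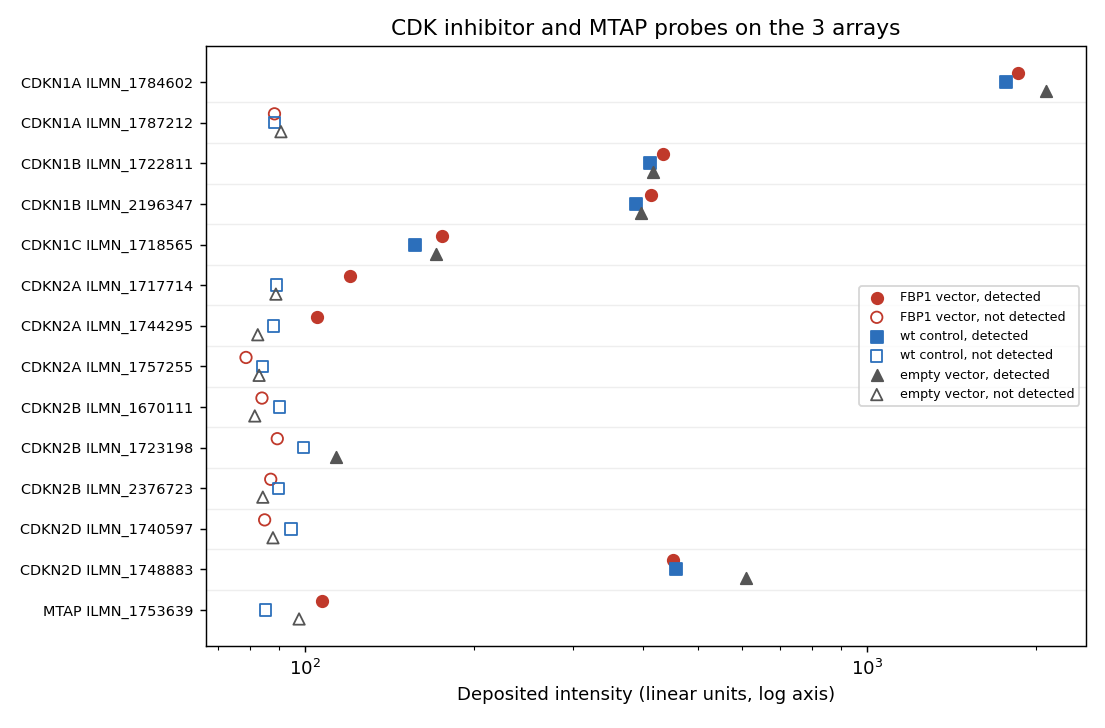
Deposited intensity of the 14 probes (rows) on the 3 arrays (log axis, linear units before background correction). Filled symbols had a detection p-value under 0.01 on that array and open symbols did not. The CDKN1A probe ILMN_1784602 stands between 1769.8 and 2077.5 on all 3 arrays, while the probes of CDKN2A, CDKN2B and MTAP stay between 78.6 and 120.6.

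Each CIP/KIP gene had a probe detected on all 3 arrays. CDKN1A encodes p21, the inhibitor best known as a target of p53. Its probe ILMN_1784602 gave intensities of 1852.8 on the FBP1 array, 2077.5 on the vector control and 1769.8 on the wt control, which after background correction and quantile normalisation became log2 levels of 10.89, 10.95 and 10.65. In intensity FBP1 cells thus lay between the controls, with a log2 difference of -0.06 from the vector control and of 0.24 from the wt control. The controls themselves differed by 0.30. A second CDKN1A probe, ILMN_1787212, annotated to transcript NM_078467, was detected on no array, with intensities between 88.3 and 90.7. The brighter probe, annotated to another transcript (NM_000389), was detected on all 3 arrays, and the statements on CDKN1A rest on it. Why the 2 probes differed in detection was not tested.

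CDKN1B encodes p27, whose abundance is set largely by degradation of the protein. Its probe ILMN_1722811 gave intensities of 434.0 on the FBP1 array, 417.1 on the vector control and 411.5 on the wt control. The other probe, ILMN_2196347, gave 413.0, 395.8 and 388.6 in the same order. Both probes ranked the arrays alike and gave nearly the same differences, 0.21 and 0.21 (log2) from the vector control and 0.27 and 0.28 from the wt control. The controls differed by 0.06 and 0.08. CDKN1C encodes p57, the imprinted member of the family. Its 1 probe was dimmer, at 175.7 on the FBP1 array, 170.9 on the vector control and 157.0 on the wt control, and its log2 differences were 0.22 from the vector control, 0.42 from the wt control and 0.20 between the controls.

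None of the 5 probes detected on all 3 arrays spanned 1.5-fold between its highest and lowest array. Over all probes detected on all 3 arrays, 23.4% spanned that much. The widest span among the 5 was 1.45-fold, for CDKN2D. With no member of this class spanning 1.5-fold, no search for other genes of like pattern was made.

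CDKN2D, the INK4 gene for p19, was the only INK4 gene detected on all 3 arrays. Its probe ILMN_1748883 gave intensities of 451.4 on the FBP1 array, 608.1 on the vector control and 458.3 on the wt control. Here the vector control stood apart, 1.45-fold above the wt control and 1.30-fold above the FBP1 array, while the FBP1 and wt arrays differed by 0.15 (log2). The other CDKN2D probe, ILMN_1740597, was detected on no array, with intensities between 84.9 and 94.6.

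The block of CDKN2A, CDKN2B and MTAP was read by 7 probes, of which none was detected on more than 1 array. The FBP1 array detected 3 of them, the vector control 1 and the wt control none. CDKN2A has 2 start sites in the RefSeq annotation (build GRCh38.p14), one for the ARF transcript and one for the p16 transcript, 20467 bases apart, so probes assigned to different transcripts may report different promoters. The 250 bases upstream of the starts of these genes are shown because probes of CDKN2A and MTAP were detected together on the FBP1 array. Capitals mark matches on either strand to a GC box (GGGCGG) or a TATA box (TATAAA).
CDKN2A, ARF start, chr9:21995325-21995574, minus strand: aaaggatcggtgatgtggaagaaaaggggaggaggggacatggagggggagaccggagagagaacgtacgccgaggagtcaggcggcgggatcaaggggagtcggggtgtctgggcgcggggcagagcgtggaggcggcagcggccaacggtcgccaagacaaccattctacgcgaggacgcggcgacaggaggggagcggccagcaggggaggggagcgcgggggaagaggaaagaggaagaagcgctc
CDKN2A, p16 start, chr9:21974858-21975107, minus strand: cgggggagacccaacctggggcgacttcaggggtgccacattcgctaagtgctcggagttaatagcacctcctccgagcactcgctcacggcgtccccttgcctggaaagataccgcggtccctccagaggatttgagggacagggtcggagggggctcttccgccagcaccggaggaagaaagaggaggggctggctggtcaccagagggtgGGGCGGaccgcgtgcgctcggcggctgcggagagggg
CDKN2B, chr9:22009306-22009555, minus strand: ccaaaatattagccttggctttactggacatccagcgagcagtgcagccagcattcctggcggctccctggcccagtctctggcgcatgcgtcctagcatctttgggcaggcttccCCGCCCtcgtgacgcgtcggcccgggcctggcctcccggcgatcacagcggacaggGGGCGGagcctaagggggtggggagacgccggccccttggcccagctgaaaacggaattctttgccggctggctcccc
MTAP, chr9:21802386-21802635, plus strand: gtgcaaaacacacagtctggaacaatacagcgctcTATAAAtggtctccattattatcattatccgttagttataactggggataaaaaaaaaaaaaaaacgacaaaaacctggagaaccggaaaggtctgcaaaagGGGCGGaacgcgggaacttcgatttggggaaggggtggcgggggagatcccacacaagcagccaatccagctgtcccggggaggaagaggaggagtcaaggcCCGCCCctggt

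The GC box was found 2 times upstream of MTAP, 2 times upstream of CDKN2B, 1 time upstream of the p16 start and not upstream of the ARF start, and 42.6% of 35116 RefSeq promoter stretches of this length held at least 1. The TATA box was found 1 time, upstream of MTAP, against 10.7% of all stretches. An E2F site, searched on both strands as TTTCCCGC, TTTCGCGC, TTTGCCGC or TTTGGCGC, was in none of the 4 stretches and in 2.79% of all. The CDKN2A stretches held 24 CpG dinucleotides before the ARF start and 20 before the p16 start, the CDKN2B stretch 18 and the MTAP stretch 11, against a median of 11. Matches are letters in a window and say nothing of which factor binds there.

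CDKN2A was above the detection limit on the FBP1 array by 2 of its 3 probes. ILMN_1717714, annotated to the p16 transcript NM_000077, gave intensities of 120.6 on the FBP1 array, 88.9 on the vector control and 89.0 on the wt control, with detection p-values of 2.7e-10, 0.291 and 0.253. The probe was detected on the FBP1 array and on neither control, although some undetected probes on the FBP1 array were brighter, up to 143 units. Under the normalisation used, and against the detection limit of the dimmer array, the signal in FBP1 cells was at least 2.04-fold that of the vector control. It was at least 2.05-fold that of the wt control. With a larger offset or no background correction the differences were smaller, as given below. The normalised log2 levels were 5.72, 4.64 and 4.66, and the uncorrected intensity ratio to the vector control was 1.36.

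ILMN_1744295, annotated to the ARF transcript NM_058195, gave intensities of 105.2 on the FBP1 array, 82.5 on the vector control and 87.9 on the wt control, with detection p-values of 0.00123, 0.927 and 0.397. It showed the same order as ILMN_1717714 but was fainter. It stood at least 1.46-fold above the vector control and at least 1.47-fold above the wt control, short of 1.5-fold. The probe ILMN_1757255, annotated to the CDKN2A transcript NM_058197, went the other way, at 78.6, 83.0 and 84.1, and was detected on none of the arrays. The probes' own sequences are not used here, so whether each reads 1 transcript or exons that the p16 and ARF transcripts share was not tested.

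MTAP had 1 probe, ILMN_1753639, with intensities of 107.5 on the FBP1 array, 97.7 on the vector control and 85.1 on the wt control. Its detection p-values were 3.14e-05, 0.0307 and 0.621, so the vector control was intermediate and would count as detected at a threshold of 0.05. Its level in FBP1 cells was at least 1.55-fold that of the wt control. It was 1.37-fold that of the vector control, a plain ratio to an undetected level and not a lower bound.

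CDKN2B, which encodes p15 and neighbours CDKN2A, did not follow it. Its probe ILMN_1723198 gave 89.4 on the FBP1 array, 113.5 on the vector control and 99.5 on the wt control, with detection p-values of 0.0989, 0.000297 and 0.0208. It was detected on the vector control alone, 1.55-fold above the FBP1 array and 1.31-fold above the wt control. These are plain ratios to undetected levels and not lower bounds. The other 2 CDKN2B probes, ILMN_1670111 and ILMN_2376723, were detected on no array, with intensities between 81.5 and 90.3, so the single detected probe was not matched by the rest of its gene. CDKN2A and CDKN2B are similar in sequence over part of their coding exons, and a probe there could read both.

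**Figure D2:**
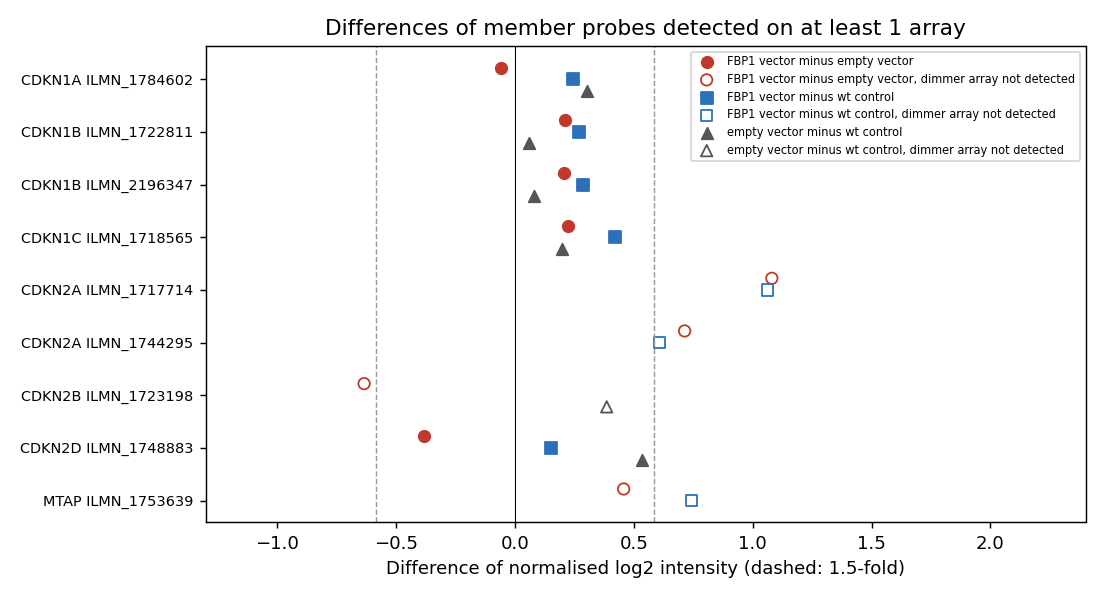
Log2 differences of normalised intensity for the 9 probes detected on at least 1 array, for each pair of arrays. Open symbols mark differences whose dimmer array did not detect the probe, and dashed lines mark 1.5-fold. The 5 probes detected everywhere lie within the dashed lines, and the CDKN2A probe ILMN_1717714 lies farthest out, at 1.08 and 1.06.

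Against the vector control, 1 member probe was higher by 1.5-fold or more (CDKN2A ILMN_1717714) and 1 was lower by as much (CDKN2B ILMN_1723198), where 6.28% and 5.85% of all detected probes were (12.1% in either direction). Against the wt control, 2 were higher (CDKN2A ILMN_1717714 and MTAP) and none lower, where 8.16% and 7.82% of all detected probes were (16% in either direction). Between the controls no member probe reached 1.5-fold, where 3.72% of all detected probes were higher on the vector control and 3.19% lower (6.91% in either direction). Above both controls by at least 1.5-fold was 1 member probe, CDKN2A ILMN_1717714, as were 3.66% of all probes detected on any array. Both differences of the FBP1 array share that array. Of the 8 member probes detected on neither control, 3 were detected on the FBP1 array, where 6.07% of all such probes were; the members were chosen with these detections known, and nothing is read from that share.

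The size of these differences depended on the background correction and on the offset added after it. For CDKN2A ILMN_1717714, the difference from the vector control was 1.08 with background estimated from the detection p-values and an offset of 16. It was 0.56 with the same background and an offset of 50. It was 0.64 with background fitted to all probes and an offset of 50, and 0.44 with the authors' processed values. From the wt control the corresponding differences were 1.06, 0.55, 0.62 and 0.43. With no background correction no member probe reached 1.5-fold in any comparison. For ILMN_1717714, ILMN_1744295, MTAP and CDKN2B ILMN_1723198, the sign of the difference from the vector control was the same under each of the other 5 normalisations; the probes detected on no array were not recomputed.

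**Figure D3:**
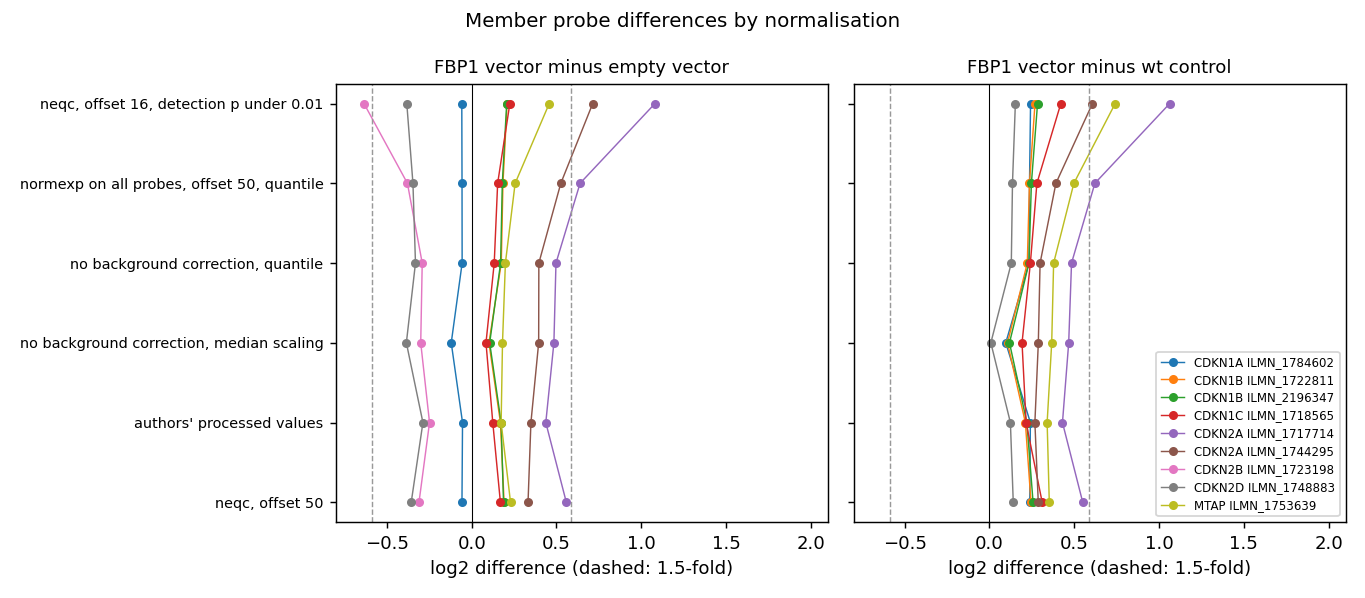
Log2 difference of the FBP1 array from the vector control (left) and from the wt control (right) for the member probes, under the normalisation used and 5 others. Each line is 1 probe and dashed lines mark 1.5-fold. The CDKN2A probe ILMN_1717714 runs from 1.08 down to 0.44 against the vector control, while the CDKN1A probe stays between -0.12 and -0.05.

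Around the block, chromosome arm 9p was mostly below the detection threshold over a long stretch. From FOCAD to TUSC1 in the RefSeq gene order, 28 genes had 41 probes, 34 of them for genes other than CDKN2A, CDKN2B and MTAP. Of these 34 probes, 30 were detected on no array, including those of the interferon alpha cluster, FOCAD, both probes of the antisense RNA CDKN2B-AS1, DMRTA1 and ELAVL2. The interferon alpha genes are near-identical copies that most cells express only after a stimulus. The undetected probes had intensities between 75.7 and 101.9 on the 3 arrays, a range that also holds the control values of CDKN2A ILMN_1717714.

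The detected genes at either end were HACD4, an enzyme of very long chain fatty acid synthesis, and TUSC1. HACD4 gave intensities of 1035.7 on the FBP1 array, 729.8 on the vector control and 756.1 on the wt control, and was 1.61-fold and 1.60-fold higher on the FBP1 array. TUSC1 gave 148.1, 180.5 and 150.8 in the same order and differed by -0.36 and 0.08 (log2). Among the genes in between, KLHL9, a mitotic ubiquitin ligase adaptor, was the only other one detected on the FBP1 array and not on the controls, at 96.5 against 80.3 on the vector control and 88.0 on the wt control. It was at least 1.19-fold above each. An IFNW1 probe was detected on the wt control alone, at 105.8, and an undetected IFNW1 probe did not follow it.

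**Figure D4:**
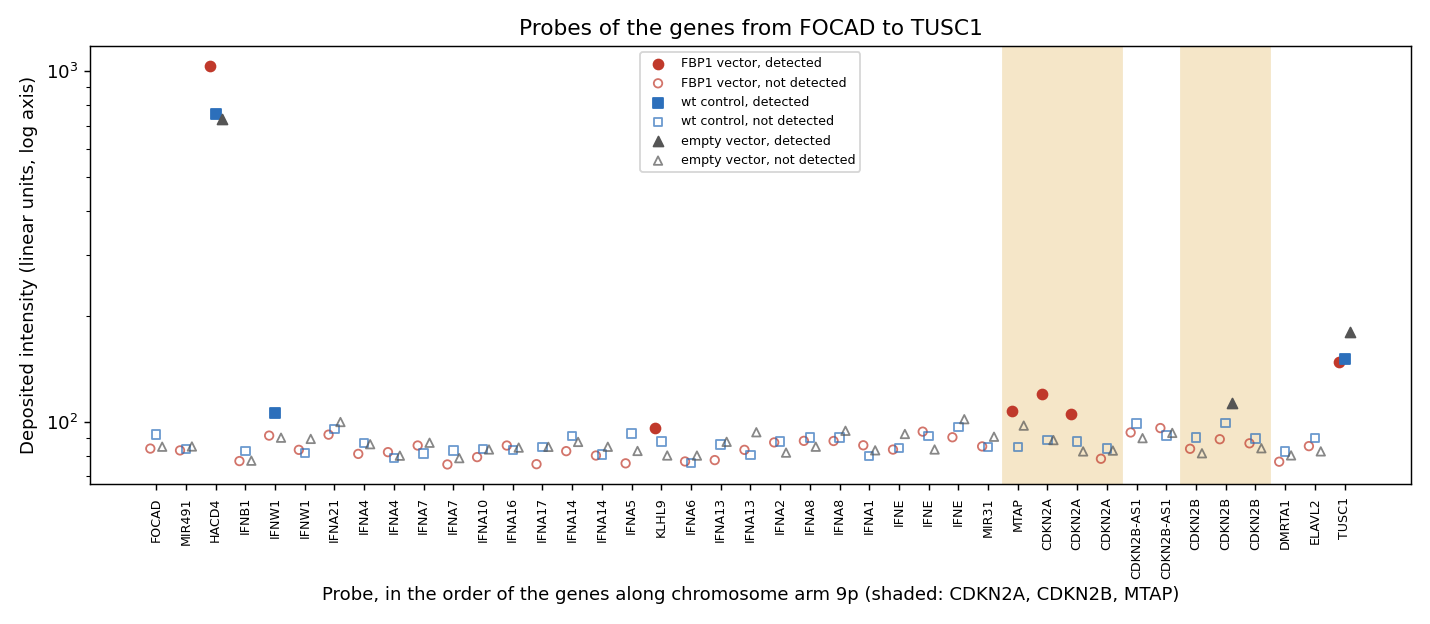
Deposited intensity (log axis) of every probe of the genes from FOCAD to TUSC1, placed in gene order and not to distance; shading marks CDKN2A, CDKN2B and MTAP. Filled symbols were detected. HACD4 and TUSC1 are detected on all 3 arrays, and between them the filled symbols are single arrays near 100 units.

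Of 40 genes listed along chromosome arm 9p beyond the block, 18 were detected on at least 1 array. Against the vector control 2 of 17 detected genes were at least 1.5-fold higher, HACD4 and TTC39B (0.61), and none lower, with a median of -0.04 against -0.01 over all detected probes. That much higher were 6.28% of all detected probes against the vector control and 8.16% against the wt control. Against the wt control 2 of 18 were higher, HACD4 and DENND4C (0.59), with a median of 0.09, which over the 39 genes with a probe, with no detection filter, became -0.03. MLLT3 (-0.55) and HAUS6 (-0.45, not detected on the FBP1 array) stood lowest against the vector control. CNTLN was detected in FBP1 cells and neither control, at least 1.38-fold above the vector control, and PSIP1 and RPS6, the gene of a ribosomal protein, differed by -0.44 and -0.04.

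Some markers of other cell states were, like CDKN2A, detected on the FBP1 array only. CDH1 (E-cadherin) and FOXA1, a luminal transcription factor, were detected on the FBP1 array and on neither control. CDH1 gave intensities of 158.3 on the FBP1 array, 89.7 on the vector control and 79.8 on the wt control, and FOXA1 gave 153.6, 85.8 and 89.7. Of 14 epithelial markers, 8 were detected on the FBP1 array and 7 on each control, with summed intensities of 4822, 5080 and 4477 on the FBP1, vector control and wt control arrays. Of 13 luminal breast markers with a probe, 7, 7 and 6 were detected, with sums of 6074, 4935 and 4697, and ESR1, PGR, GATA3 and TFF1 were detected on none. Of the luminal markers compared, 4 of 8 were at least 1.5-fold above the vector control, with a median of 0.56, and 4 of 7 above the wt control, with a median of 0.99, and none was lower. Between the controls 1 of 7 was higher on the vector control, with a median of 0.42. Of all detected probes, 6.28% were at least 1.5-fold above the vector control and 8.16% above the wt control. Of the epithelial markers 2 of 9 and 2 of 8 were, with medians of 0.07 and 0.23. Of the fibroblast markers 1 of 6 and 1 of 6 were, and of the blood cell markers 2 of 6 and 1 of 5. Lower by as much than the wt control were 1 fibroblast and 1 blood cell marker. The secretory marker AGR2 gave intensities of 858.0 on the FBP1 array, 410.1 on the vector control and 328.4 on the wt control. Of 12 fibroblast markers 5, 5 and 4 were detected, with sums of 1357, 1365 and 1376, and of 12 blood cell markers 4, 5 and 4, with sums of 1701, 1590 and 1890, PTPRC being detected on none. The part of these markers, and of the array that did not match its label, in the CDKN2A and MTAP signals was not tested. Fewer cells expressing a gene and less RNA per cell cannot be told apart on these arrays.

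Of the 5 inhibitor probes detected on all 3 arrays, none differed 1.5-fold between the FBP1 array and either control. Only 12.1% of all detected probes were that far from the vector control and 16% from the wt control. A count of 0 among 5 probes therefore sets the inhibitors apart from neither share. Past 1.5-fold were 2 inhibitor probes outside this class, CDKN2A ILMN_1717714 (above both controls) and CDKN2B ILMN_1723198 (below the vector control). Some kinases and cyclins that the inhibitors act on also passed 1.5-fold, downward. Of 32 detected CDK, cyclin and RB genes, 7 were at least 1.5-fold below the vector control and 8 below the wt control. Among all detected probes 5.85% and 7.82% were. None of the 32 genes was that much higher than either control, and the medians were -0.21 and -0.23. With the authors' processed values 3 and 4 were lower. Between the controls 1 was lower and none higher. CCNB2, a mitotic B-type cyclin, gave intensities of 875.9 on the FBP1 array, 2110.3 on the vector control and 1609.9 on the wt control, and was 2.33-fold and 1.69-fold lower on the FBP1 array, where the controls differed by 0.46 (log2). CCNA2, the S phase and G2 cyclin, was 1.91-fold and 1.79-fold lower. CDK1, the kinase that drives mitosis, stood at -0.72 and -0.78.

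Of CDK4, CDK6 and the D-type cyclins, the partners that the INK4 proteins compete for or bind, none reached 1.5-fold. CDK4 gave intensities of 1861.6 on the FBP1 array, 2082.2 on the vector control and 2344.7 on the wt control, with log2 differences of -0.05 and -0.17. CDK6 stood at -0.21 and -0.38. Of the D-type cyclins, CCND1 stood at -0.40 and -0.09, CCND2 at 0.01 and -0.43 and CCND3 at -0.19 and -0.01. CCNE1, the G1/S cyclin restrained by p21 and p27, was 1.69-fold below the vector control and differed by -0.44 from the wt control. RB1, which encodes the retinoblastoma protein that CDK4 and CDK6 phosphorylate, stood at -0.54 and -0.64. E2F7 (0.45) and E2F5 (0.27) stood highest in this list against the vector control and CCNB2 and CCNA2 lowest.

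Genes of replication and mitosis outside that list had the lowest median. Of 24 detected, 12 were at least 1.5-fold below the vector control and 12 below the wt control, where 5.85% and 7.82% of all detected probes were. Their medians were -0.60 and -0.59 against -0.05 between the controls, and none was that much higher. With the authors' processed values 8 and 8 were lower. CENPE (-1.94) and KIF20A (-1.32) stood lowest and LIN52 (0.25) and LIN54 (-0.06) highest against the vector control. The proliferation marker MKI67 stood at -0.62 and -0.75. FOXM1, which drives many mitotic genes, stood at -0.86 and -0.55. Against these, CDKN1A differed by -0.06 and 0.24 and CDKN1B by at most 0.28.

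**Figure D5:**
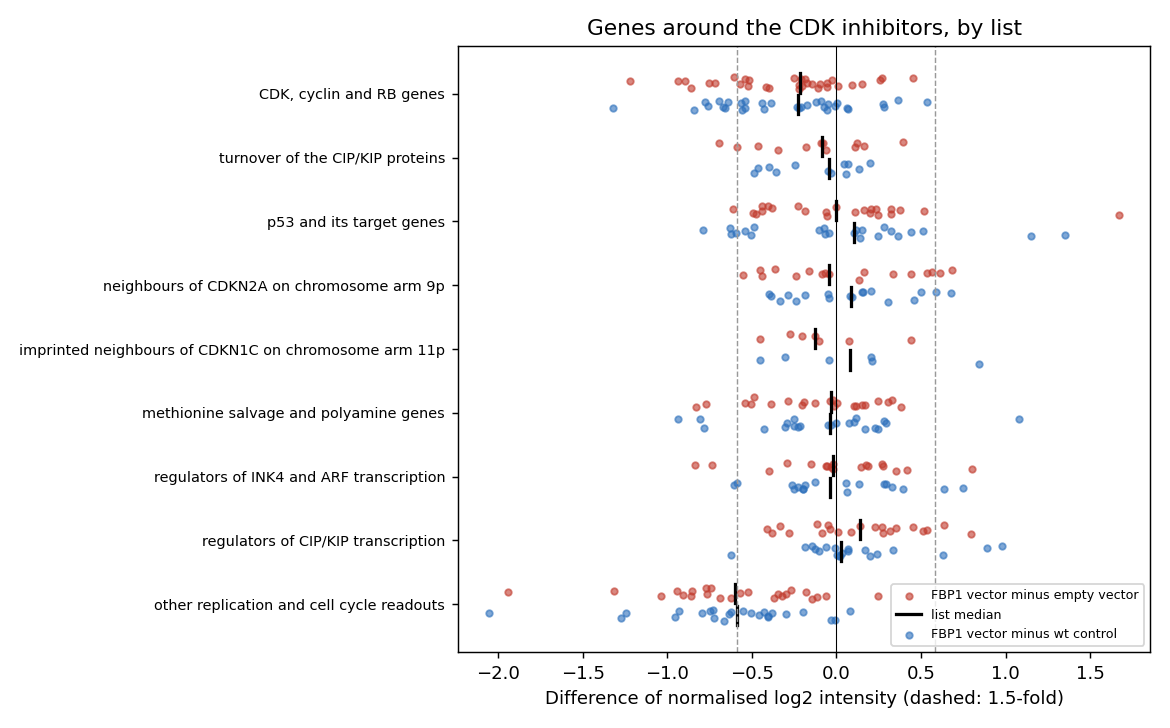
Log2 differences of the FBP1 array from the vector control (red) and from the wt control (blue) for the detected genes of 9 lists, each gene read from its brightest probe. Black bars are list medians and dashed lines mark 1.5-fold. The medians lie at -0.60 and -0.59 for replication and cell cycle readouts and at -0.21 and -0.23 for CDK, cyclin and RB genes; each of the other medians lies between -0.13 and 0.14.

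The p53 target genes, of which CDKN1A is one, went both ways. Of 23 detected, 1 was at least 1.5-fold above the vector control and 1 below, with a median of 0.00. Against the wt control 2 were above and 4 below, with a median of 0.10. In either direction, 12.1% of all detected probes were that far from the vector control and 16% from the wt control. GDF15, a stress-induced cytokine gene with other regulators beside p53, gave intensities of 810.2 on the FBP1 array, 326.1 on the vector control and 397.9 on the wt control, 3.18-fold and 2.55-fold higher. ZMAT3 (0.52) came next, and BAX (-0.61) and DDB2 (-0.50) stood lowest against the vector control. GADD45A, which like p21 acts on the cell cycle after DNA damage, stood at -0.44 and -0.54.

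Genes that control p21 and p27 themselves reached 1.5-fold from the vector control about as often as all detected probes did (12.1%). Of 12 detected genes of CIP/KIP protein turnover, 2 were at least 1.5-fold below the vector control, DTL (-0.69), which directs p21 to degradation in S phase, and CUL4B (-0.59), and none differed that much from the wt control. SKP2 and CKS1B, which together direct p27 to degradation, stood at -0.35 and -0.46 against the vector control, and FBXW7 (0.40) and RNF123 (0.17) stood highest. Of 21 detected regulators of CIP/KIP transcription, 2 were higher than the vector control by that much and none lower, with a median of 0.14, and of 20 compared with the wt control 3 were higher and 1 lower, with a median of 0.03. Higher than the vector control were KLF4 (0.80), an activator of CDKN1A transcription, which was 1.86-fold above the wt control, and EGR1 (0.64), which stood at -0.14 against the wt control and differed by -0.78 between the controls. HES1 (-0.41) and BRCA1 (-0.38) stood lowest, and FOXO3, an activator of CDKN1B transcription, stood at 0.32 and 0.33.

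Regulators of the INK4 and ARF promoters went both ways, with medians of -0.02 against the vector control and -0.04 against the wt control. Of 18 detected, 1 was at least 1.5-fold above the vector control, ZBTB7A (0.80), known in mouse as a repressor of ARF, and 2 were below, EZH2 (-0.84), the catalytic subunit of Polycomb complex PRC2, and ID1 (-0.74). Against the wt control 2 were higher and 1 lower, and between the controls 1 was lower on the vector control. The shares of all detected probes past 1.5-fold either way were 12.1%, 16% and 6.91% in these 3 comparisons. ZBTB7A stood at 0.14 and ID1 at -0.26 against the wt control. EZH2 stood at -0.58 there, short of 1.5-fold. BMI1, the Polycomb protein known for repressing CDKN2A, stood at -0.40 and -0.60, and ETS1 (0.42) stood second highest.

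In methionine salvage and polyamine synthesis, the pathway that produces and recycles the substrate of MTAP, 2 of 22 detected genes were at least 1.5-fold below the vector control and none above. Against the wt control 3 were lower and 1 higher, and between the controls 2 were higher on the vector control. Either way, 12.1%, 16% and 6.91% of all detected probes passed 1.5-fold in these comparisons. ODC1, the first enzyme of polyamine synthesis, stood at -0.83 and -0.93, and SRM, spermidine synthase, at -0.77 and -0.78. SAT1, which acetylates polyamines for export, stood at 0.38 and 1.08, with 0.70 between the controls, and MAT2B at 0.33 and 0.28. PRMT5, the arginine methyltransferase that cells without MTAP are known to depend on, gave intensities of 687.3 on the FBP1 array, 698.9 on the vector control and 931.2 on the wt control and differed by 0.11 and -0.29. The median was -0.03 against the vector control and -0.04 against the wt control.

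The imprinted neighbours of CDKN1C on chromosome arm 11p were detected in part, with 7 of 13 genes that had a probe detected on at least 1 array. None of the 7 was 1.5-fold away from the vector control, where 12.1% of all detected probes were, and 16% from the wt control. The antisense RNA KCNQ1OT1, which silences CDKN1C on the paternal chromosome, gave intensities of 99.2 on the FBP1 array, 118.5 on the vector control and 116.5 on the wt control and stood lowest, at -0.45 and -0.45. INS, detected on the vector control alone, stood at -0.27. OSBPL5 (0.44) and CD81 (0.07) stood highest, and OSBPL5 was 1.79-fold above the wt control, the only one of 6 detected genes past 1.5-fold in that comparison. Over all 9 lists, 6 of 175 detected genes were at least 1.5-fold higher than the vector control and 26 lower (18.75% upward). Against the wt control 11 of 174 were higher and 29 lower (27.5% upward). Of all detected probes, 1049 were higher and 978 lower than the vector control. Against the wt control 1360 were higher and 1303 lower. The lists were chosen with earlier results known, and 2 of them held most of the lower genes. These were CDK, cyclin and RB genes (7 and 8 lower) and replication and cell cycle readouts (12 and 12). With no background correction the list counts against the wt control were 7 and 18 (28% upward) under quantile normalisation. Under median scaling they were 5 and 24 (17.2% upward). Between the controls 3 of 173 were higher on the vector control and 4 lower.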

How the data were processed

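The deposited table gives, for every probe on each array, a linear intensity and, per the file headers, a detection p-value. Its lowest intensities lay between 63.3 and 68.2 and its medians between 91.7 and 94.6. The authors' processed table holds the same probes as intensity with medians between 87.8 and 87.9; how it was made is not given in the sources used here. Of 48107 probes, 2 lacked a value and were dropped. The limma 3.58.1 function neqc (R 4.3.3) estimated background from the detection p-values, added an offset of 16, quantile normalised and took log2; further steps used Python 3.11.15 with pandas 2.3.3, numpy 2.4.6 and matplotlib 3.10.9.

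A probe was detected at a detection p-value under 0.01 and entered a comparison if detected on either array. Where the dimmer array did not detect it, "at least" folds are against that array's detection limit (its dimmest detected probe). If the probe's own level there was higher, that level was used. Undetected probes could lie above that limit, so "at least" folds are not strict lower bounds. Differences were counted at 1.5-fold. Lists were read from each gene's brightest probe. Symbols come from the platform annotation and RefSeq (GRCh38.p14), whose promoter table gave the sequences; the files name no build. Named were all member probes, FBP1, the 2 highest and 2 lowest genes of each list, neighbours detected on 1 or 2 arrays, and further genes whose values had been seen. Members and lists were chosen with earlier results of these data known. The normalisation was also run on simulated arrays whose folds were known. Those folds were set only in probes brighter than the probes of CDKN2A, CDKN2B and MTAP.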

Additional observations from a re-analysis of the deposited data

How the results depend on the processing

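No paired analysis was possible because each group had 1 array. The main counts were 2 member probes at least 1.5-fold apart against the vector control, 2 against the wt control and 0 between the controls, with 32 list genes apart from the vector control. Background fitted to all probes (normexp, offset 50) gave 1 and 1 member probes and 21 list genes. Quantile normalisation without background correction gave 0 and 0 and 20 list genes, median scaling 0 and 0 and 22, the authors' processed values 0 and 0 and 17, and neqc with an offset of 50 0 and 0 and 22. A detection threshold of 0.05, or none, added CDKN2A ILMN_1744295, for 3 and 3. A larger offset, or background left in, shrinks differences of dim probes by construction; for the authors' values the cause was not tested. Between the controls the count was 0 under all 7 alternatives. No list median changed by as much as 0.29 log2, the spread of single-probe differences between the controls. A median over a list varies less than a single probe, so that yardstick is a loose one. The replication and cell cycle median against the vector control went from -0.60 to -0.38 with the authors' processed values. The count of lower genes in that list went from 12 to 8. Detection p-values were not a function of intensity alone: undetected probes reached 143 units on the FBP1 array, 210 on the wt control and 8580 on the vector control, above every CDKN2A, CDKN2B and MTAP value. Where a CDKN2A, CDKN2B or MTAP probe was not detected, its level cannot be told from 0, also where it lay above the dimmest detected probe of that array.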
